A study of Homo sapiens with 6 samples.

Results

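Serine synthesis, the mitochondrial and cytosolic folate enzymes that use serine, and asparagine synthetase were followed through 6 RNA-seq libraries of 8505C, a long-used human cell line derived from an anaplastic thyroid carcinoma. The members were the 10 named rows of the deposited expression table for PHGDH, PSAT1, PSPH, SHMT1, SHMT2, MTHFD1, MTHFD2, MTHFD1L, ALDH1L2 and ASNS, out of 58735 named genes. Of these, 9 passed the low-count filter, which left 14280 genes in all, and ALDH1L2 did not. One group carried a short hairpin RNA against HHEX, a homeobox transcription factor of thyroid development, and its genotype is labelled HHEX KD (3 libraries, named KD1, KD2 and KD3 in the table). The other group carried a control hairpin and is labelled wild-type (3 libraries, control1, control2 and control3). Both groups are labelled untreated, and neither a clone number nor a vector is given. The design text calls the libraries biological replicates, but in each group 2 titles begin with the same replicate number, and no label names separate cultures. The p-values therefore cover the spread among the libraries at hand, which may be technical in part. Which column carries which title is not stated.

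Cells make serine from a glycolytic intermediate in a short chain of reactions. PHGDH oxidises phosphoglycerate, PSAT1 transfers an amino group from glutamate, and PSPH removes the phosphate. Serine hydroxymethyltransferases then pass a carbon from serine to tetrahydrofolate, SHMT2 in mitochondria and SHMT1 in the cytosol. In mitochondria MTHFD2 oxidises that carbon, MTHFD1L releases it as formate and ALDH1L2 can burn it to carbon dioxide, while in the cytosol the trifunctional MTHFD1 takes up formate for purine and thymidylate synthesis. ASNS makes asparagine from aspartate and glutamine. Many of these genes are known targets of ATF4, the transcription factor of the amino acid stress response, which binds with C/EBP proteins at a composite element.

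Short stretches of promoter are shown because that composite element, TGATGNAA, and the E-box, CACGTG, were looked for on both strands in the 250 bases before each RefSeq start site (GRCh38.p14). RefSeq promoter entries were matched for 7 of the 10 members. The composite element was found in 3.14% and the E-box in 6.34% of all 35116 promoters of that length. TGATGNAA was matched before 1 of 2 start sites of ASNS and 2 of 4 of MTHFD1L, and CACGTG before 2 of 4 start sites of MTHFD1L and the start site of MTHFD1. Each line gives the strand of the gene from 5′ to 3′ with the match in capitals.
ASNS, chr7:97872458-97872487, minus strand, 68 bases before the start site: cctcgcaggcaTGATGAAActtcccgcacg
MTHFD1L, chr6:150866346-150866375, plus strand, 129 and 90 bases before its start sites: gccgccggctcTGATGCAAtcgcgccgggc
MTHFD1, chr14:64388323-64388352, plus strand, 15 bases before the start site: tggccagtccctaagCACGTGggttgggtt
The E-box of MTHFD1L lay 154 and 115 bases before the same start sites, and no motif overlapped another. PHGDH, PSAT1, SHMT1 and MTHFD2 held neither run of letters in this window. The printed stretches all lie inside the gene bounds of the expression table given below, which begin upstream of these RefSeq start sites. A match is a description of letters and not a site.

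HHEX, the targeted gene (ENSG00000152804), did not follow the labels in every library. In the library labelled KD1 it lay at 14.8 CPM (counts scaled to the library total, corrected by the TMM method), in KD2 at 7.93 CPM and in KD3 at 7.12 CPM, against 12.6, 12.8 and 12.0 CPM in control1, control2 and control3. KD1 thus stood above all controls in value and goes against its label. Its exact 95% Poisson interval, which covers counting error only, was 12.9 to 16.8 CPM and overlapped that of each control. HHEX was therefore not lower in KD1, and a rank above the controls is not settled. Hereafter KD1, KD2 and KD3 are names of columns and not statements about HHEX. Its log2 fold change was −0.33 (SE 0.28, edgeR quasi-likelihood test, Benjamini-Hochberg adjusted p = 0.527). KD1 and KD2 were the most alike of all pairs (r = 0.989 in log2 CPM across tested genes) while KD3 was nearer to the controls (0.971 to 0.977) than to KD1 (0.955) or KD2 (0.956). These coefficients run over genes, and genes do not replicate a condition. Total counts over named genes ranged from 14052770 to 15067566 in the HHEX hairpin libraries and from 13333245 to 15144176 in the controls. Of 8 thyroid markers, TG, TSHR and SLC5A5 lay at or below 0.299 CPM in every library, while NKX2-1 lay at 18.0 to 37.9 CPM with the HHEX hairpin and 26.7 to 50.5 CPM in the controls. PAX8 lay at 2.57 to 3.59 CPM with the HHEX hairpin and 2.99 to 5.47 CPM in the controls, and FOXE1 at 3.36 to 4.44 CPM with the HHEX hairpin and 3.45 to 3.97 CPM in the controls. Summed leukocyte markers (7 genes, with LYZ among those at 0) were at 3.03 to 4.25 CPM with the HHEX hairpin and 2.99 to 4.78 CPM in the controls. Fibroblast markers (7 genes, with COL1A2 at 0 in all but control3) were at 14.4 to 48.1 CPM with the HHEX hairpin and 43.6 to 55.8 CPM in the controls, and endothelial markers (5 genes) at 5.07 to 14.9 CPM with the HHEX hairpin and 15.0 to 16.4 CPM in the controls. The lowest fibroblast and endothelial sums were those of KD3. Most of the fibroblast sum was COL3A1, at 36.4, 40.8 and 9.94 CPM across KD1, KD2 and KD3 and 36.5 to 51.5 CPM in the controls, while COL1A1 in KD3 (2.61 CPM) lay inside the control range of 2.32 to 4.82 CPM. The 5 epithelial markers were split. KRT7 stood at 181%, 162% and 115% of the control mean in KD1, KD2 and KD3 and KRT8 at 176%, 156% and 84.6%. KRT18 stood at 102%, 88.4% and 93.0%. EPCAM, at or below 2.28 CPM in every library, went the other way, at 11.9%, 29.4% and 99.5%. CDH1 had 0 or 1 counts in each library. The nuclear transcript NEAT1 was at 426, 462 and 502 CPM with the HHEX hairpin, against 551, 1031 and 1115 CPM in the controls. Over the 7 tested genes of its list, 6 of them with a negative log2 fold change, the median was only −0.06. NORAD, of the same list, was higher, at 626, 690 and 552 CPM with the HHEX hairpin against 547, 486 and 511 CPM in the controls. The part of these markers in the results was not tested. In bulk RNA, fewer cells of a type and less RNA per cell cannot be told apart.

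The comparison of the groups asks which of these enzymes differ with the HHEX hairpin. None of the 9 tested members passed edgeR's test over all 6 libraries (0 at an unadjusted p under 0.05, against 20.6% of all tested genes), where 0.182% of all tested genes were called, 0.105% as higher and 0.0770% as lower. DESeq2, which called 6.04% of all genes, and limma-voom, which called 0.196%, called 0 of the 9 as well. By either tool 5 members had an unadjusted p under 0.05, as had 21.1% of all tested genes. The single libraries of the HHEX hairpin were not alike. In KD1, 6 of the 9 members lay more than 2-fold below the control mean, against 8.50% of all tested genes, and 0 lay as far above, against 3.94%. In KD2 it was again 6 of 9, against 8.46%. In KD3 it was 0 of 9, against 3.63%, and 0 lay as far above, against 1.91%. The members' median log2 difference from the control mean was −1.10 for KD1, −1.33 for KD2 and 0.00 for KD3, where the median of all tested genes was −0.02, −0.02 and −0.01.

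**Figure D1:**
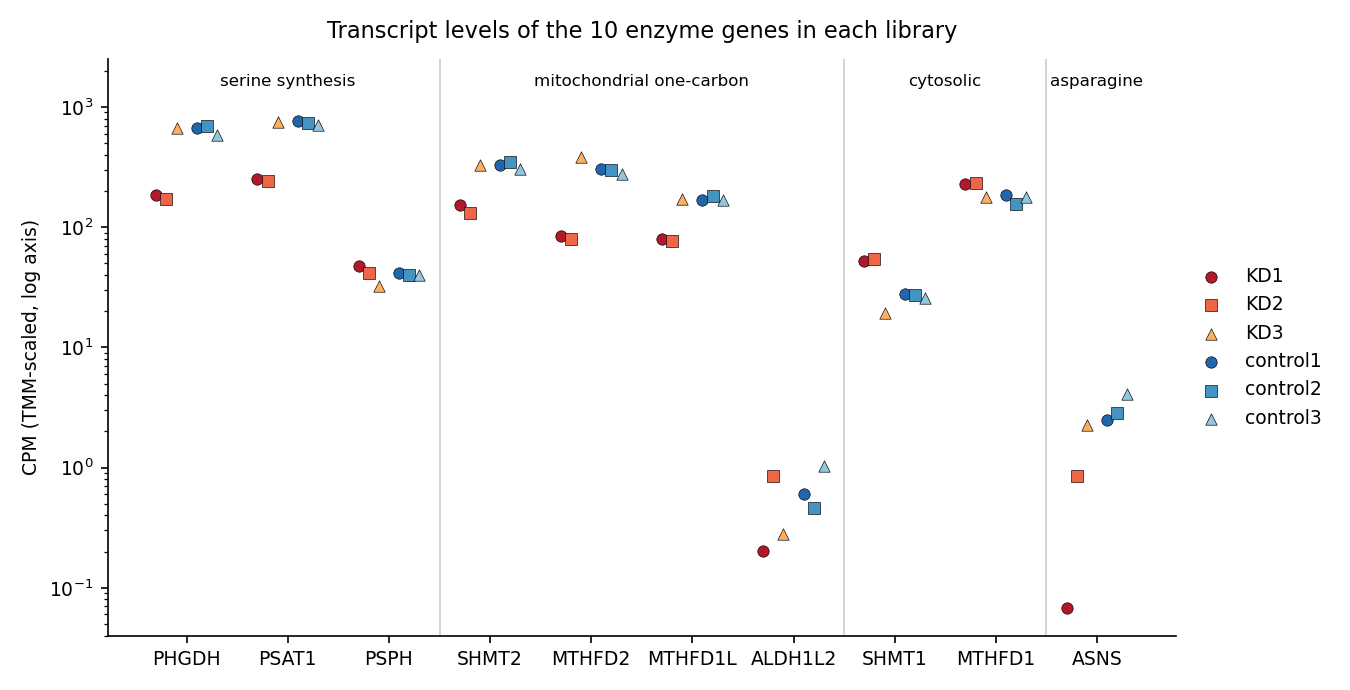
CPM on a log axis for the 10 enzyme genes, with 1 point per library and the HHEX hairpin libraries left of the controls within each gene. PHGDH, PSAT1, SHMT2, MTHFD2 and MTHFD1L have KD1 and KD2 low and KD3 among or above the controls, SHMT1 has KD1 and KD2 high, and ALDH1L2 and ASNS lie lowest, at 0.0674 to 4.10 CPM for ASNS.

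PHGDH (ENSG00000092621, chromosome 1, 119648411 to 119744226, plus strand), which controls entry into serine synthesis, was measured at 185, 172 and 664 CPM across KD1, KD2 and KD3, against 668, 688 and 580 CPM in control1, control2 and control3. KD1 and KD2 stood at 28.7% and 26.7% of the control mean and KD3 at 103%, inside the control range. Over all libraries the log2 fold change was −0.92 (SE 0.50, 95% confidence interval −2.10 to 0.26, edgeR adjusted p = 0.332).

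PSAT1 (ENSG00000135069, chromosome 9, 78297143 to 78330093, plus strand), the aminotransferase of the next step, lay at 251, 241 and 743 CPM across KD1, KD2 and KD3, against 762, 742 and 711 CPM in the controls. It divided the libraries as PHGDH did, with KD1 and KD2 at 34.0% and 32.7% of the control mean and KD3 at 101%. The log2 fold change was −0.84 (SE 0.42, interval −1.83 to 0.15, edgeR adjusted p = 0.300).

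PSPH (ENSG00000146733, chromosome 7, 56011051 to 56051604, minus strand), the phosphatase that completes serine, did not share this division. It was at 47.4, 41.6 and 32.1 CPM across KD1, KD2 and KD3, against 41.8, 39.7 and 40.0 CPM in the controls, so that KD3 was the lowest of the 6 and KD1 the highest. Its log2 fold change of −0.01 (SE 0.16, interval −0.37 to 0.36, edgeR adjusted p = 0.988) has an interval on both sides of 0. PSPHP1, an annotated pseudogene copy on chromosome 7, was counted 118, 121 and 98 times in KD1, KD2 and KD3 and 100, 157 and 103 times in the controls. Reads could be split between the 2 genes, which makes the PSPH values uncertain.

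Among the mitochondrial enzymes, SHMT2 (ENSG00000182199, chromosome 12, 57229327 to 57234935, plus strand), which takes the carbon from serine, lay at 153, 131 and 326 CPM across KD1, KD2 and KD3, against 331, 345 and 307 CPM in the controls. KD1 and KD2 were at 46.6% and 39.8% of the control mean and KD3 at 99.3%. The groups differed by −0.69 in log2 units (SE 0.32, interval −1.43 to 0.05, edgeR adjusted p = 0.263).

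MTHFD2 (ENSG00000065911, chromosome 2, 74198562 to 74217565, plus strand), the dehydrogenase that follows, was at 85.2, 79.3 and 382 CPM across KD1, KD2 and KD3, against 306, 299 and 278 CPM in the controls. It was the member with the widest gap between KD3 and the other HHEX hairpin libraries among those above 10 CPM, since KD3 stood above all controls at 130% of their mean and KD1 and KD2 at 28.9% and 27.0%. Its log2 fold change was −0.69 (SE 0.58, interval −2.05 to 0.67, edgeR adjusted p = 0.522). Exons of SLC4A5 on the other strand cover 27.2% of the MTHFD2 exon bases. SLC4A5 was counted 1, 0 and 9 times in KD1, KD2 and KD3 and 3, 9 and 2 times in the controls, and whether the counting used strand is not stated.

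MTHFD1L (ENSG00000120254, chromosome 6, 150865549 to 151101887, plus strand), the formate-releasing synthetase, was at 80.4, 76.5 and 172 CPM across KD1, KD2 and KD3, against 169, 180 and 168 CPM in the controls. KD1 and KD2 were at 46.6% and 44.4% of the control mean, close to the shares of SHMT2, and KD3 at 99.9%. As a log2 fold change the difference was −0.65 (SE 0.30, interval −1.34 to 0.03, edgeR adjusted p = 0.259).

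ALDH1L2 (ENSG00000136010, chromosome 12, 105019784 to 105084577, minus strand), the mitochondrial formyltetrahydrofolate dehydrogenase, was close to the detection floor of 3 counts. It was counted 3, 12 and 4 times in KD1, KD2 and KD3 and 8, 7 and 16 times in the controls, or 0.202, 0.857 and 0.282 CPM with the HHEX hairpin against 0.598, 0.465 and 1.04 CPM in the controls. The groups overlapped. The exact 95% Poisson intervals cover counting error only. That of KD1 (0.0417 to 0.591 CPM) overlapped those of control1 (0.258 to 1.18 CPM) and control2 (0.187 to 0.958 CPM). It lay just under that of control3 (0.595 to 1.69 CPM), the highest control. The intervals of KD2 (0.443 to 1.50 CPM) and KD3 (0.0768 to 0.722 CPM) overlapped that of every control. Its cytosolic counterpart ALDH1L1 was as sparse, with 4, 4 and 2 counts in KD1, KD2 and KD3 and 5, 10 and 4 counts in the controls.

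The cytosolic folate enzymes lay on the other side of the controls in KD1 and KD2. SHMT1 (ENSG00000176974, chromosome 17, 18327860 to 18363563, minus strand) was at 51.8, 54.6 and 19.3 CPM across KD1, KD2 and KD3, against 27.9, 27.1 and 25.8 CPM in the controls. KD1 and KD2 stood at 192% and 202% of the control mean and KD3, below every control, at 71.6%. Between the groups the log2 fold change was 0.64 (SE 0.35, interval −0.16 to 1.43, edgeR adjusted p = 0.325). It was the member that lay more than 2-fold above the control mean in KD2, where 4.27% of all tested genes did.

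MTHFD1 (ENSG00000100714, chromosome 14, 64388031 to 64463457, plus strand) showed a smaller difference of the same sign. It was at 229, 234 and 177 CPM across KD1, KD2 and KD3, against 186, 157 and 178 CPM in the controls. KD1 and KD2 lay above every control, at 132% and 134% of their mean, and KD3 inside their range. This gave a log2 fold change of 0.29 (SE 0.15, interval −0.04 to 0.63, edgeR adjusted p = 0.290). Genes on the other strand cover 8.06% (AL122035.2) and 1.90% (ZBTB25) of the MTHFD1 exon bases, and 2.69% (SMCR8) of those of SHMT1.

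Set side by side, the mitochondrial and cytosolic folate enzymes parted in KD1 and KD2 and not in KD3. The mean log2 difference from the control mean over the 4 mitochondrial enzymes was −1.31 for KD1, −1.02 for KD2 and −0.14 for KD3. Over the 2 cytosolic enzymes it was 0.67, 0.72 and −0.22. The mitochondrial mean minus the cytosolic mean was therefore −1.98 for KD1, −1.74 for KD2 and 0.08 for KD3, against −0.15, 0.00 and 0.14 in control1, control2 and control3, each control set against the mean of the other 2. ALDH1L2, with its few counts, moved these values, which were −2.00, −2.18 and 0.35 without it, against −0.09, 0.18 and −0.09 in the controls. With the serine synthesis enzymes added to the cytosolic side the difference was −0.95, −0.61 and 0.00 in KD1, KD2 and KD3. PHGDH and PSAT1 themselves lay at −1.79 and −1.56 in KD1 and −1.90 and −1.61 in KD2. The parting is thus one between these folate enzymes and was not shown for whole compartments. All these values are descriptions without a test, since the enzymes were chosen with earlier results known.

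**Figure D2:**
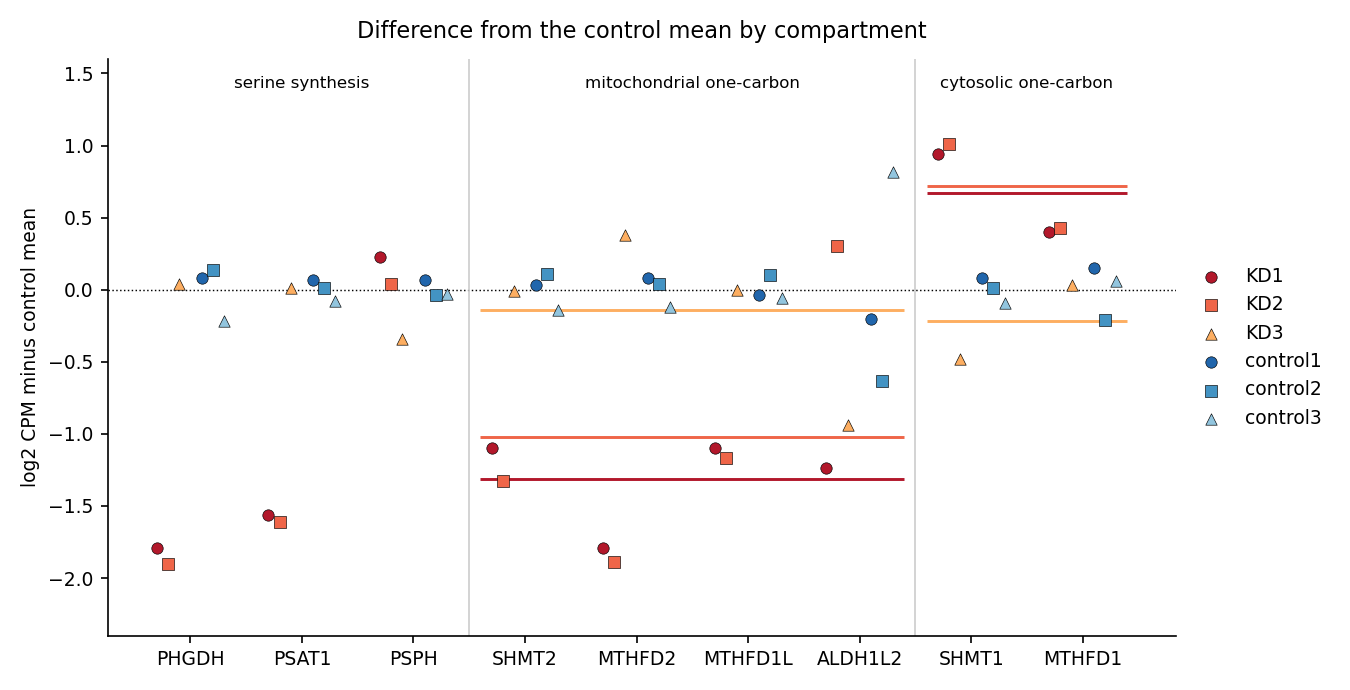
Log2 CPM minus the control mean for the serine synthesis, mitochondrial and cytosolic enzymes, with 1 point per library and each control set against the mean of the other 2. Horizontal lines mark the means of KD1, KD2 and KD3 over the folate enzymes of each compartment, which in KD1 lie at −1.31 for the mitochondrial and 0.67 for the cytosolic ones.

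A ratio of 2 enzymes within a library does not depend on how libraries are scaled. Levels of different genes were compared as CPM per kilobase of exon, which depends on the exon length taken for each gene. On this scale SHMT2 exceeded SHMT1 by 4.43-fold for KD1, 3.60-fold for KD2 and 25.4-fold for KD3, against 17.8-fold, 19.2-fold and 17.9-fold in the controls. SHMT2 thus made up 81.6%, 78.3% and 96.2% of the summed CPM per kilobase of both hydroxymethyltransferases in KD1, KD2 and KD3, against 94.7%, 95.0% and 94.7% in the controls. The mitochondrial form stayed the more abundant transcript in all 6 libraries, and KD1 and KD2 stood apart from the other 4.

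For the steps after serine the order itself turned on this scale. The ratio per kilobase of MTHFD2 to MTHFD1 was 0.716, 0.654 and 4.16 in KD1, KD2 and KD3, against 3.17, 3.66 and 3.0 in the controls. The ratio of MTHFD1L to MTHFD1 was 0.656, 0.611 and 1.82 with the HHEX hairpin, against 1.70, 2.14 and 1.76 in the controls. Per kilobase, mitochondrial transcripts were thus the scarcer of each pair in KD1 and KD2 and the more abundant in KD3 and all controls. Without length, the log2 count ratio of MTHFD2 to MTHFD1 was −1.43 and −1.56 in KD1 and KD2 and 0.64 to 1.11 elsewhere. For MTHFD1L the order rests on the exon lengths used, 5021 bases against 9377 for MTHFD1. Its log2 count ratio to MTHFD1 was −1.51, −1.61 and −0.04 in KD1, KD2 and KD3, against −0.13, 0.20 and −0.09 in the controls. On the log2 count scale the mean ratio differed between the groups by −1.30 for SHMT2 to SHMT1, −1.39 for MTHFD2 to MTHFD1 and −1.04 for MTHFD1L to MTHFD1. The exact two-sided permutation p was 0.400, 0.400 and 0.300, and 0.400 for each when adjusted over the 3 pairs, where 3 against 3 libraries cannot go below 0.1. Each ratio was lower in 2 of 3 HHEX hairpin libraries than in any control.

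**Figure D3:**
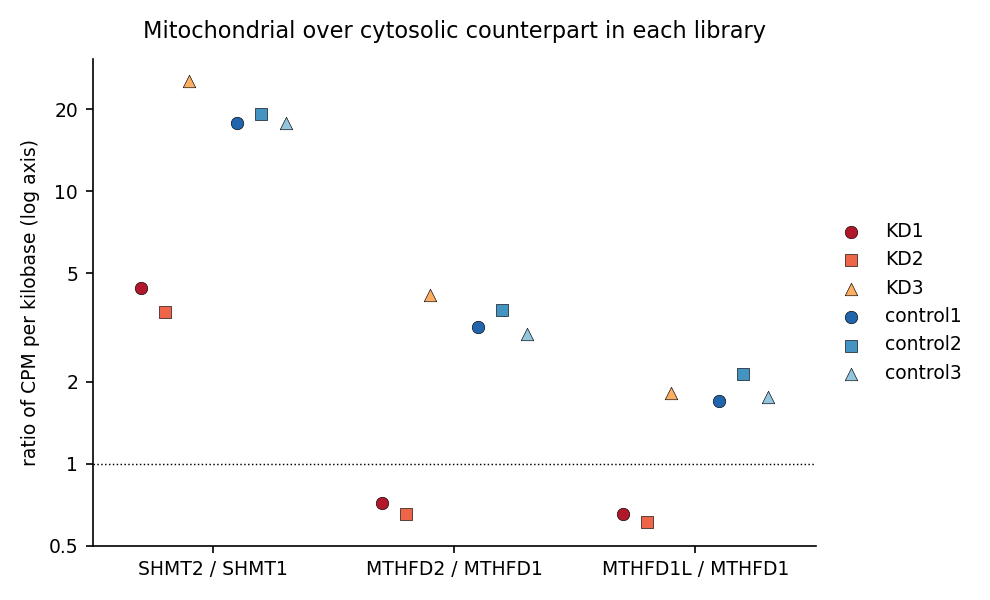
Ratio of CPM per kilobase of exon, on a log axis, of a mitochondrial enzyme to its cytosolic counterpart, with 1 point per library and the HHEX hairpin libraries on the left. KD1 and KD2 lie under the control range of 17.8 to 19.2 for SHMT2 to SHMT1 and under 1 for both ratios to MTHFD1, while KD3 lies with or above the controls.

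Per length, PSAT1 was the most abundant member in both groups, at 188 ± 131 CPM per kilobase with the HHEX hairpin and 337 ± 11.8 CPM per kilobase in the controls (SD, n = 3 each). The order depends on the exon union taken as length, 2188 bases for PSAT1 and 9217 for PHGDH, which may exceed the main transcript. Without length, the control means of PSAT1 and PHGDH were 738 and 646 CPM. In the controls PHGDH (70.0 ± 6.22 CPM per kilobase) and SHMT2 (67.8 ± 3.93 CPM per kilobase) came next with overlapping ranges. MTHFD2 (60.5 ± 2.94), MTHFD1L (34.3 ± 1.35), MTHFD1 (18.5 ± 1.58), PSPH (14.7 ± 0.417) and SHMT1 (3.70 ± 0.145 CPM per kilobase) followed in that order, each with a range separate from its neighbours. With the HHEX hairpin the ranges of SHMT2, MTHFD2, PHGDH, MTHFD1 and MTHFD1L each overlapped the next in order, which for MTHFD1L was PSPH, and PSPH and SHMT1 were separate. There MTHFD2 averaged 37.4 ± 35.6 and MTHFD1 22.7 ± 3.36 CPM per kilobase.

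ASNS (ENSG00000070669, chromosome 7, 97852118 to 97872542, minus strand), whose promoter stretch with TGATGAAA is given above, was counted 1, 12 and 32 times in KD1, KD2 and KD3 and 33, 43 and 63 times in the controls. These are 0.0674, 0.857 and 2.26 CPM with the HHEX hairpin against 2.47, 2.85 and 4.10 CPM in the controls. It was the 1 member of 9 with every HHEX hairpin library below every control, as were 13.3% of all tested genes, although KD3 (exact Poisson interval 1.54 to 3.18 CPM) lay within the counting error of control1 (1.70 to 3.46 CPM). Over all libraries the log2 fold change of ASNS was −1.57 (SE 0.75, interval −3.29 to 0.15, edgeR adjusted p = 0.276).

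The level of ASNS is uncertain. In GENCODE release 29, exons of AC079781.5 on the same strand cover 1683 of the 1752 coding bases of ASNS, or 96.1%. AC079781.5 was itself counted 1, 0 and 2 times in KD1, KD2 and KD3 and 2, 2 and 6 times in the controls. Across the table, 0.421% of the 475 protein-coding genes that share at least 90% of their exon bases with another gene of the same strand reached a control mean of 1 CPM, against 61.2% of the 16526 that share none. How reads within 2 genes were counted is not stated in the sources used here. Of all exon bases of ASNS, untranslated ones included, 44.6% were shared, so that by this measure ASNS is outside that class. The pseudogene ASNSP1 was counted 4, 0 and 25 times in KD1, KD2 and KD3 and 9, 13 and 16 times in the controls. The level of ASNS per length, at 0.238 ± 0.249 CPM per kilobase with the HHEX hairpin and 0.705 ± 0.192 CPM per kilobase in the controls (SD, n = 3 each), was therefore not set in the order above. No other member shared more than 1.00% of its exon bases with a gene of the same strand.

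The result rests on KD3. Without it, edgeR called 8 of the 10 members, ALDH1L2 among those tested and PSPH and ALDH1L2 the exceptions, where 31.6% of all genes tested then were called. Of the 8, 6 were lower, against 15.1% of genes, and 2 were higher, against 16.5%. PHGDH then lay at −1.83 in log2 units (SE 0.13, edgeR adjusted p = 1.09e-06), PSAT1 at −1.56 (SE 0.12, edgeR adjusted p = 1.76e-06) and MTHFD2 at −1.82 (SE 0.12, edgeR adjusted p = 6.14e-07). SHMT2 and MTHFD1L lay at −1.19 and −1.11, and ASNS at −2.74 (SE 0.63, edgeR adjusted p = 0.00527). SHMT1 and MTHFD1 were higher by 1.00 (edgeR adjusted p = 6.98e-05) and 0.44 (edgeR adjusted p = 0.0105). That fit sets KD1 and KD2, which may not be independent of each other, against the controls, and HHEX lay at −0.11 in it (edgeR adjusted p = 0.754). KD3 was singled out after its values for these members were seen, so these p-values describe that split and do not test it. HHEX lay at 57.1% of the control mean in KD3, which was left out, and at 118% in KD1, which was kept. With any other library left out 0 members were called, but those fits called 0 or 1 genes in all and so say nothing of the members.

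Other genes of the pathway came from lists, and 0 members of these lists passed edgeR's test over all 6 libraries. DESeq2, which called 6.04% of all tested genes, did call some of them. Among those named below were SLC6A9 (DESeq2 adjusted p = 0.0114), STC2 (0.0288), SFXN1 (0.0346), SLC46A1 (0.0352) and GLUL (0.0439). The amino acid stress factors divided the libraries as the mitochondrial enzymes did. Their median log2 difference from the control mean was −1.55 for KD1, −1.79 for KD2 and 0.17 for KD3 over 18 tested genes, 6 of which had a positive log2 fold change. More than 2-fold below the control mean lay 10 of them for KD1, 11 for KD2 and 0 for KD3, against 8.50%, 8.46% and 3.63% of all tested genes, and 2 lay more than 2-fold above it in KD3, against 1.91%. ATF4 itself was at 170, 170 and 750 CPM across KD1, KD2 and KD3, against 596, 691 and 585 CPM in the controls (edgeR adjusted p = 0.458). DDIT3, a transcription factor induced downstream of ATF4, was at 2.09, 1.57 and 53.8 CPM with the HHEX hairpin, against 52.5, 81.6 and 53.8 CPM in the controls (edgeR adjusted p = 0.458). TRIB3, a pseudokinase induced with it, was at 32.9, 28.4 and 220 CPM with the HHEX hairpin, against 221, 272 and 215 CPM in the controls (edgeR adjusted p = 0.346). KD1 and KD2 were far below the controls in each of these, and KD3 lay inside or just above their range. STC2 and VLDLR, members of the same list, lay the other way, with log2 fold changes of 0.52 and 0.61 and no overlap between the groups (edgeR adjusted p = 0.134 and 0.147), as did ATF5 at 0.42, while EIF4EBP1, an inhibitor of translation, was at −0.66. Of all tested genes, 11.6% were higher without overlap, and the genes named from each list are those with its smallest p.

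Among genes that move or use serine and glycine, 6 of 11 tested had a negative log2 fold change, with a median of −0.07. SLC6A9, a glycine transporter, was at 12.6, 13.6 and 44.0 CPM across KD1, KD2 and KD3, against 68.1, 63.4 and 63.3 CPM in the controls, so that here KD3 also lay below every control (−1.47 in log2 units, SE 0.46, edgeR adjusted p = 0.159). SFXN1, a carrier that brings serine into mitochondria, lay above every control in all 3 libraries, at 195, 194 and 129 CPM with the HHEX hairpin against 122, 110 and 99.5 CPM in the controls (0.65, SE 0.18, edgeR adjusted p = 0.127). The neutral amino acid transporter SLC1A5 was at 142, 132 and 306 CPM with the HHEX hairpin, against 301, 319 and 277 CPM in the controls, and followed the division of SHMT2. SDSL lay at a log2 fold change of −0.85.

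In the methionine cycle and transsulfuration, 4 of 8 tested genes had a negative log2 fold change. CBS, which joins serine to homocysteine, was at 2.29, 2.79 and 30.5 CPM across KD1, KD2 and KD3, against 33.3, 30.5 and 33.0 CPM in the controls (edgeR adjusted p = 0.387). Its gap between KD3 and the other HHEX hairpin libraries was wider than that of SHMT2. MAT2A, which makes S-adenosylmethionine, was on the other side, at 319, 338 and 179 CPM with the HHEX hairpin against 221, 212 and 246 CPM in the controls. MTR and AHCY lay at log2 fold changes of 0.22 and −0.21.

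Of the other folate genes, SLC46A1, a proton-coupled folate transporter, was at 3.84, 3.21 and 3.95 CPM with the HHEX hairpin, against 6.80, 6.90 and 6.57 CPM in the controls (−0.88 in log2 units, SE 0.22, edgeR adjusted p = 0.114). Unlike in SHMT2, KD3 lay with KD1 and KD2 and below every control. GCSH and DMGDH, at a few CPM or less, lay at −1.09 and −1.98, and MTFMT, FPGS and SLC19A1 at −0.33, −0.21 and −0.32. In all, 5 of 7 tested folate interconversion genes and 3 of 6 tested uptake and retention genes had a negative log2 fold change.

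Nucleotide synthesis consumes one-carbon units. Of 14 tested thymidylate and purine genes 11 had a positive log2 fold change, with a median of 0.23, and the median difference from the controls was 0.27 for KD1, 0.26 for KD2 and 0.06 for KD3. IMPDH1, PRPS2 and PPAT lay at 0.57, 0.36 and 0.28 without overlap between the groups, as did 11.6% of all tested genes in that direction. IMPDH2, an enzyme of guanine nucleotide synthesis, lay at −0.50 and was lower without overlap, as were 13.3% of all tested genes. Markers of mitosis had KD1 and KD2 above the controls and KD3 below them in the median, as SHMT1 did in its own values. Their median difference from the controls was 1.38, 1.39 and −0.58 in KD1, KD2 and KD3 over 12 of 12 tested genes, and their summed level ran from 1153 to 4174 CPM with the HHEX hairpin and from 1447 to 1864 CPM in the controls. MKI67, which proliferating cells express, lay at 400, 468 and 73.2 CPM with the HHEX hairpin, against 158, 108 and 102 CPM in the controls (edgeR adjusted p = 0.250), and its part in the members' values was not tested.

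**Figure D4:**
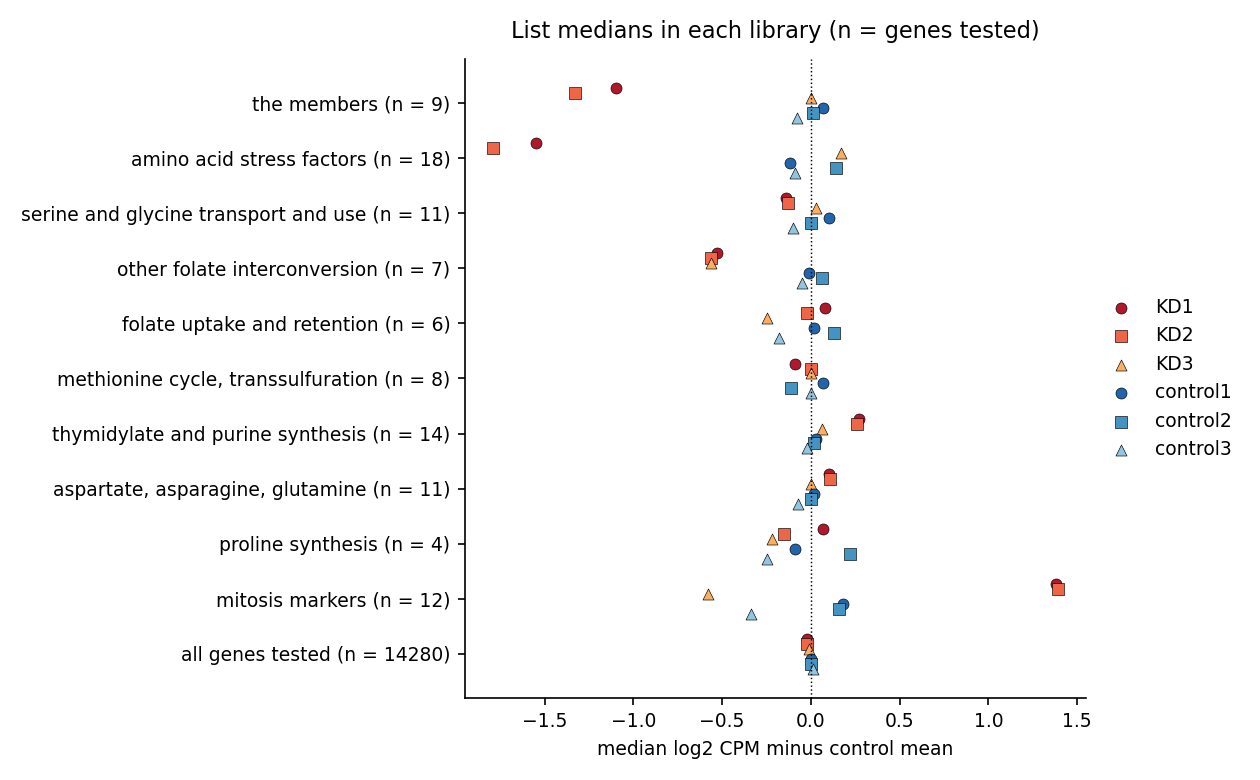
Median log2 CPM minus the control mean for the members and each list, with 1 point per library, each control set against the mean of the other 2, and n the genes tested. The members and the amino acid stress factors have KD1 and KD2 at −1.10 to −1.79 and KD3 near 0, and the mitosis markers have KD1 and KD2 at 1.38 and 1.39.

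Around aspartate and glutamine, GLUL and GOT2 lay at log2 fold changes of 0.49 and 0.29, likewise without overlap. The glutamate transaminase GPT2 lay at −0.53, with 49.1, 48.6 and 88.3 CPM across KD1, KD2 and KD3 against 88.5, 89.6 and 90.3 CPM in the controls. GPT2 was thus lower without overlap, though KD3 was close to the controls. In proline synthesis PYCR1, the mitochondrial reductase, was at 35.2, 33.6 and 123 CPM with the HHEX hairpin, against 147, 154 and 129 CPM in the controls (edgeR adjusted p = 0.238). ALDH18A1, which acts before it, was at 157, 151 and 126 CPM with the HHEX hairpin, against 121, 110 and 95.3 CPM in the controls (edgeR adjusted p = 0.174). PYCR1 was lower and ALDH18A1 higher, each without overlap between the groups. PYCR3 lay at a log2 fold change of −0.43. Factors known to regulate serine synthesis were measured too. MYC was at 42.3, 42.5 and 96.8 CPM with the HHEX hairpin, against 74.0, 88.0 and 88.1 CPM in the controls (edgeR adjusted p = 0.427). KD1 and KD2 lay below every control, as for SHMT2, while KD3 lay above every control, where SHMT2 in KD3 lay inside their range. NFE2L2, which encodes NRF2, was at 106, 95.3 and 156 CPM with the HHEX hairpin, against 133, 144 and 125 CPM in the controls (edgeR adjusted p = 0.624), while EHMT2 lay at a log2 fold change of 0.24.

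Outside the lists, the genes whose log2 CPM over the 6 libraries was most like that of SHMT2 were OS9, GHITM, ANAPC16, DNAJB9 and GOLGA5, at a Pearson coefficient of 0.997 to 0.999. In all 5, KD1 and KD2 lay below the other libraries, which follows from choosing them by likeness to SHMT2. Of 7578 genes compared, 305 lay above 0.95. DNAJB9, a chaperone of the endoplasmic reticulum, was at 25.1, 19.5 and 63.1 CPM across KD1, KD2 and KD3, against 70.5, 77.6 and 64.1 CPM in the controls. GHITM, a protein of the inner mitochondrial membrane, was at 174, 157 and 310 CPM with the HHEX hairpin, against 306, 322 and 280 CPM in the controls. For ASNS, with its few counts, the most alike were SLC30A1, WDR35, SPIN3, N4BP2L2 and ZFP90, at 0.969 to 0.980.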

How the data were processed

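RNA was extracted with Trizol and libraries came from TIANSeq mRNA capture and library kits, per the labels' protocols. The sources used here name no aligner, counter or strandedness. The authors deposited raw counts per gene, and gene start and end in their table equal GENCODE 29 (GRCh38) for 58672 of 58735 named genes. A further 998 rows without a gene name took 0.239% to 0.298% of counts and stayed out of totals and tests. Columns give a library's group but not its title.

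Counts were filtered with filterByExpr, scaled by TMM and tested with glmQLFit (robust) and glmQLFTest of edgeR 4.0.16 in R 4.3.3, with Benjamini-Hochberg adjustment over all tested genes and a threshold of 0.05. Standard errors were computed as the log2 fold change over the square root of F. Log2 CPM used a prior count of 2. Levels were compared between genes as CPM per kilobase of the GENCODE 29 exon union. DESeq2 1.42.0 and limma-voom (limma 3.58.1) were alternatives, beside other scalings, no filter, no robust estimation and leaving out each library. On simulated counts for 14280 genes, 46 of 100 genes changed 2-fold and 83 of 100 changed 4-fold were called, with 11 false calls among 14080. The simulated libraries of a group varied independently around a shared mean. In the data KD3 lay apart from KD1 and KD2, so these rates may not carry over. At these totals 3 counts equal 0.195 to 0.224 CPM. Members, lists (164 of 165 entries matched) and motifs were chosen with earlier results of these data known. Other genes were named by rule as up to 4 tested members of each pathway list with the smallest p, ATF4, DDIT3, TRIB3 and MKI67, and the 5 genes of at least 20 CPM most like SHMT2 and ASNS. ALDH1L1 and the genes that share exons or sequence with a member were named for comparison. Promoter sequences are from RefSeq. A few genes that this rule names are not reported here.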

Additional observations from a re-analysis of the deposited data

How the results depend on the processing

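Over all 6 libraries edgeR called 26 genes. With 1 library left out the count ran from 0 to 4675. It was 4675 without KD3, 1 without control1, and 0 without KD1, KD2, control2 or control3, where 1789, 1625, 1947 and 1806 genes had an unadjusted p under 0.05 in edgeR. It was 1359 without the low-count filter and 862 by DESeq2. With 1 library left out the log2 fold change ran from −1.83 to −0.60 for PHGDH, −1.56 to −0.57 for PSAT1, −1.19 to −0.45 for SHMT2, −1.82 to −0.33 for MTHFD2 and −1.11 to −0.44 for MTHFD1L. It ran from 0.41 to 1.00 for SHMT1, 0.23 to 0.44 for MTHFD1 and −2.74 to −1.01 for ASNS. PSPH, near 0, ran from −0.14 to 0.16, with 0.16 without KD3 and 0.05 without control1, and was 0.01 with RLE scaling and with DESeq2 and 0.00 without the filter. Without the filter 4 of 10 members passed edgeR's test, as did 4.80% of 28322 genes, with nearly the same fold changes, SHMT2 at −0.69, MTHFD1L at −0.65, SHMT1 at 0.64 and ASNS at −1.57 (edgeR adjusted p = 0.00479, 0.00425, 0.0223 and 0.0177), and the cause was not tested. The mitochondrial minus cytosolic difference in KD1, KD2 and KD3 was −1.82, −1.45 and −0.09 without MTHFD2, −1.71, −1.45 and −0.17 without SHMT1, and −2.25, −2.03 and 0.34 without MTHFD1. It was −2.18 in KD2 and 0.35 in KD3 without ALDH1L2, −1.97 in KD2 as a median, and −0.95 and −0.61 in KD1 and KD2 with the serine synthesis enzymes on the cytosolic side. Without 1 control it stayed within −2.03 to −1.93, −1.79 to −1.69 and 0.03 to 0.13. The paralogue ratio differences kept their sign in all settings run (−2.19 to −0.79, −2.25 to −0.92 and −1.55 to −0.76 with 1 library left out). No paired analysis was possible because the columns do not carry the replicate labels of the titles.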
